A study of Mus musculus with 12 samples.

Results

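The genes described here hold the mouse oocyte in meiotic arrest or take it out of arrest. They are Mos, Ccnb1, Ccnb2, Cdk1, Cdc25b, Wee2, Gpr3, Pde3a, Aurkc and Plk1. They were chosen by name, as the rows of the expression table that carry these symbols, and all 10 were found among 23235 gene entries. Mos, Cdk1, Wee2, Aurkc and Plk1 encode protein kinases, while Ccnb1 and Ccnb2 encode cyclins, Cdc25b a phosphatase, Gpr3 a receptor and Pde3a a phosphodiesterase. RNA was measured in oocytes of mice at day 14, either wild type (WT) or lacking Mtr4, which encodes an RNA helicase that delivers nuclear RNA to the exosome for decay. Nuclei and cytoplasms were parted by micromanipulation, and each library was made from the total RNA of 10 nuclei or 10 cytoplasms after removal of ribosomal RNA. There were 4 groups of 3 libraries, 12 in all: WT nucleus, Mtr4-null nucleus, WT cytoplasm and Mtr4-null cytoplasm. The study's design note mentions duplicates, although 3 samples of each group are labelled, and all 3 were counted as replicates here. The sources used here do not give the strain, or how and in which cells Mtr4 was removed, and no treatment is named for any group. Whether replicate libraries stem from different mice is not stated, so p-values reflect only library-to-library spread, which may be technical.

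A growing oocyte is arrested in meiotic prophase and at first cannot mature. In the arrested oocyte the receptor GPR3 keeps cyclic AMP high. Protein kinase A keeps CDK1 idle by favouring the inhibitory kinase WEE2 and holding back the phosphatase CDC25B. PDE3A ends arrest by breaking cyclic AMP down. At maturation CDK1 with cyclin B becomes active, MOS starts the MAP kinase pathway that keeps the egg arrested later on, and PLK1 and AURKC act on the spindle and chromosomes. Many of these mRNAs are made during growth, stored in the cytoplasm and translated only at maturation.

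Values are FPKM, fragment counts corrected for transcript length and for the size of the library, so levels of different genes can be set side by side. FPKM also depends on what else a library holds, and in nuclei 1 small RNA, Scarna2, took 58.0 to 81.7% of summed FPKM, against 0 to 5.13% in cytoplasms. Skiv2l2, the symbol of Mtr4 in the table, was at 21.1, 19.4 and 20.2 FPKM across the WT cytoplasms, against 1.04, 0.315 and 0.700 FPKM in the Mtr4-null ones. The WT nuclei read 6.06, 2.45 and 5.37 FPKM, and the libraries labelled Mtr4-null nucleus 1, 2 and 3 read 7.98, 0.182 and 1.12 FPKM. The first of these exceeded every WT nucleus, so its label is in doubt. The library labelled Mtr4-null nucleus 3 stood apart too, with 1045 FPKM summed over the 10 genes, against 317.7 to 567.5 in the other nuclei and 1343 to 1591 in cytoplasms. For the 10 genes, the nuclear genotype test, the Mtr4-null compartment test and the difference of effects are therefore also given without these libraries. So are the counts of ratios. Leaving both out keeps a single Mtr4-null nucleus. Other results that use these nuclei, such as the wider pathway in nuclei and the pattern profile, are given only with all libraries as labelled. All 12 oocyte markers on a fixed list were above 1 FPKM in every library. Of 16 granulosa cell markers, 3 or 4 reached 1 FPKM in a cytoplasm. Nr5a2 (15.5 to 30.6 FPKM), Cyp19a1 (1.23 to 5.51) and Kitl (1.28 to 3.49) did so in every cytoplasm, while Amh and Foxl2 stayed at or below 0.520 FPKM. Between 2 and 6 of the 16 reached 1 FPKM in a nucleus, where Amh ranged from 0.347 to 1.7 FPKM and Foxl2 read at most 0.541. Of 12 theca and stroma markers none reached 1 FPKM in a cytoplasm, but their sum was 39.9 FPKM in WT nucleus 2, against 1.51 to 7.41 in the other nuclei. Of 12 blood and endothelium markers 1 to 3 reached 1 FPKM in a library. The 9 nuclear RNA markers, mostly long noncoding RNAs such as Malat1, summed to 403 to 814.6 FPKM in WT nuclei, 136.8 to 360.7 FPKM in nuclei labelled Mtr4-null and 5.48 to 10.65 FPKM in cytoplasms. For cells other than oocytes, fewer cells and less RNA per cell cannot be told apart in bulk RNA. Oocyte nuclei or cytoplasms were fixed at 10 per library, but FPKM does not give the amount of RNA per oocyte.

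All 10 genes were expressed in every library, and in WT cytoplasm they ranged over more than 1 order of magnitude. Mos, at 414.9 ± 26.5 FPKM (SD, n = 3), and Ccnb1, at 407 ± 32.4 FPKM, were the highest, and each exceeded 99.2% of the 13157 genes tested. Their ranges overlapped. Next came Wee2 (224 ± 14.8 FPKM), Plk1 (135.5 ± 5.70) and Aurkc (110.3 ± 18.4), each apart from its neighbours. Ccnb2 (82.0 ± 4.90 FPKM) and Pde3a (78.5 ± 7.18) overlapped, Gpr3 followed at 59.2 ± 3.93 FPKM, and Cdc25b (32.7 ± 2.195) and Cdk1 (29.8 ± 1.09) overlapped at the bottom. The catalytic subunit Cdk1 thus had the lowest transcript level of the 10, and Ccnb1, its cyclin partner, was 12.4 to 15.2 times as abundant in each WT cytoplasm. In Mtr4-null cytoplasm the order at the top had separated: Mos, at 488 ± 37.9 FPKM, no longer overlapped Ccnb1, at 324 ± 13.6 FPKM. There Aurkc, Plk1 and Pde3a overlapped as neighbours, as did Ccnb2 and Gpr3, and Cdc25b and Cdk1.

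**Figure D1:**
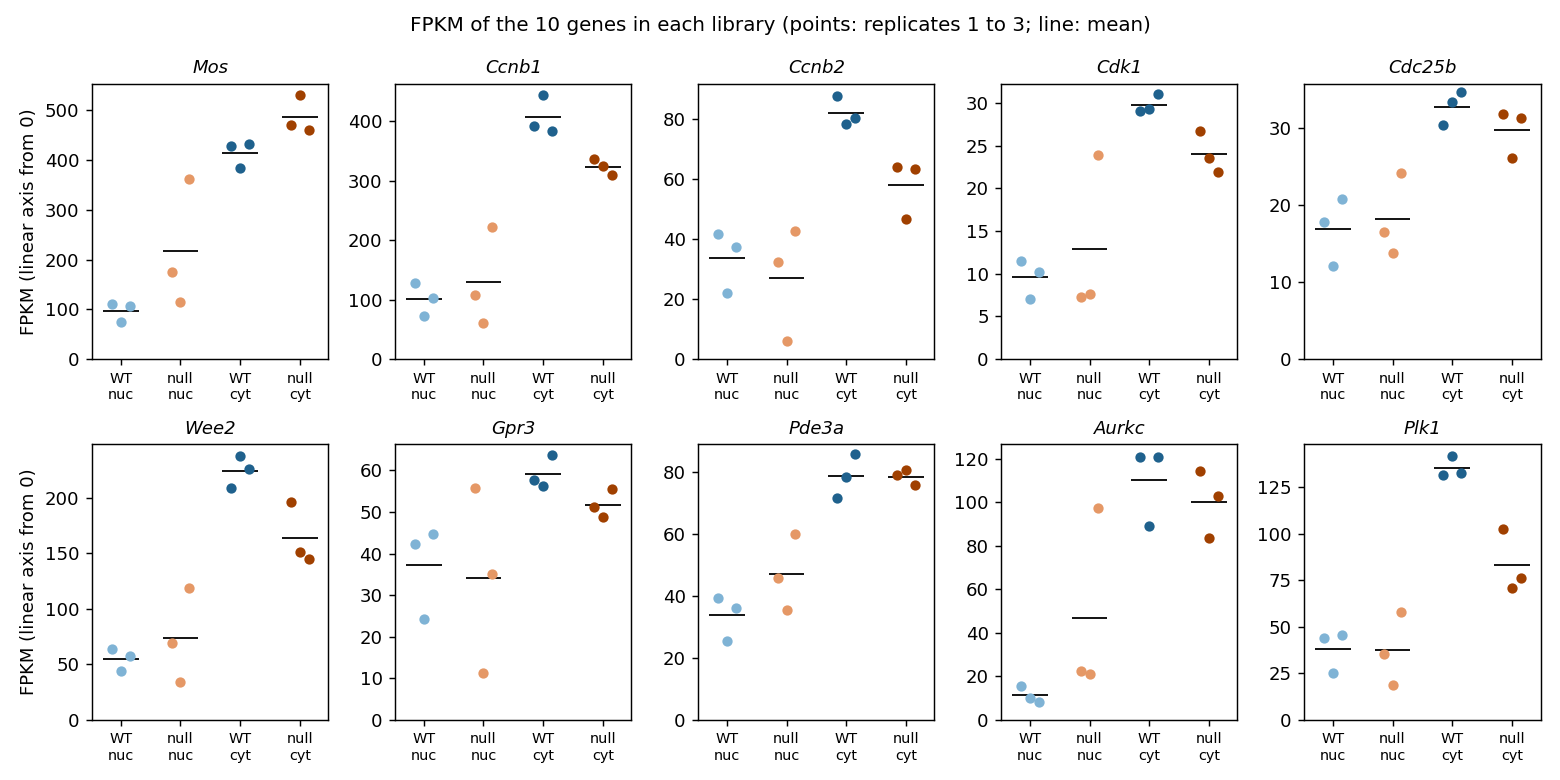
FPKM of each of the 10 genes (linear axes from 0) in the 12 libraries. Points are the 3 libraries of a group in order of replicate, lines are group means, nuc is nucleus and cyt cytoplasm. Plk1 and Ccnb2 in Mtr4-null cytoplasm lie below all WT cytoplasms, and the library labelled Mtr4-null nucleus 3 is the highest nuclear point for Mos, Ccnb1, Wee2, Aurkc and several others.

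Between the cytoplasms of the genotypes, 2 of the 10 genes passed the test, Plk1 and Ccnb2, and both fell in Mtr4-null oocytes. The question is whether loss of the nuclear helicase alters the store of maturation mRNAs. Over all 13157 genes tested 23.2% were called (limma, Benjamini-Hochberg adjusted p below 0.05), 13.3% higher and 9.85% lower, so 2 of 10 is near the background share. In 7 of the 10 genes the 3 Mtr4-null cytoplasms did not overlap the 3 WT cytoplasms, 6 lower and 1 (Mos) higher. Over all genes 43.9% did not overlap, 20.9% lower and 23% higher. The median log2 difference was -0.25 over the 10 genes and 0.00 over all genes tested. In a fit of all 12 libraries, in which the wider spread of the nuclei enters the error, limma called none of the 10 (none at an unadjusted p below 0.05 either) and 1.88% of all genes.

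Neither gene of the arrest signal was called. Gpr3, the receptor that keeps cyclic AMP high, was at 57.6, 56.3 and 63.7 FPKM across the WT cytoplasms, against 51.1, 48.8 and 55.5 FPKM in the Mtr4-null ones. The groups did not overlap, but the difference of -0.19 ± 0.09 (log2, standard error) was not called (limma adjusted p = 0.17). Pde3a, the enzyme that ends arrest by breaking cyclic AMP down, was at 71.4, 78.3 and 85.7 FPKM across WT cytoplasms, against 78.9, 80.6 and 75.6 FPKM in the Mtr4-null ones. Its groups overlapped, and the 95% confidence interval of its log2 difference ran from -0.22 to 0.22.

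Both B-type cyclins and their kinase were lower in all Mtr4-null cytoplasms than in any WT cytoplasm, and Ccnb2 passed the test. Ccnb2 was at 87.6, 78.3 and 80.3 FPKM across the WT cytoplasms, against 63.9, 46.5 and 63.2 FPKM in the Mtr4-null ones, a log2 difference of -0.51 ± 0.14 (limma adjusted p = 0.0487). This call lies at the threshold: it was lost when any WT cytoplasm, Mtr4-null cytoplasm 1 or Mtr4-null cytoplasm 3 was left out (adjusted p = 0.0547 to 0.131), with a pseudocount of 0.1 (0.0525), without the filter on low values (0.0585) and after quantile normalization (0.0618). Ccnb1, the major cyclin partner of CDK1, was at 392.8, 444 and 384 FPKM across WT cytoplasms, against 337, 324 and 310 FPKM in the Mtr4-null ones. That is -0.33 ± 0.10 on the log2 scale, with limma adjusted p = 0.0636. Cdk1 was at 29.1, 29.3 and 31.1 FPKM across WT cytoplasms, against 26.7, 23.5 and 21.96 FPKM in the Mtr4-null ones (log2 -0.30 ± 0.10, limma adjusted p = 0.0756). Summed over both cyclins, WT cytoplasms held 464.7 to 522.5 FPKM and Mtr4-null cytoplasms 370.6 to 401.2 FPKM.

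Neither regulator of CDK1 phosphorylation was called. Wee2, the oocyte's inhibitory kinase, was at 209, 238 and 226 FPKM across the WT cytoplasms, against 197, 151 and 145 FPKM in the Mtr4-null ones. The groups did not overlap, and the log2 difference of -0.46 ± 0.14 missed the threshold (limma adjusted p = 0.061). It passed after median-of-ratios scaling (0.0429), with library weights (0.0295) and without Mtr4-null cytoplasm 1 (0.0195). Cdc25b, the phosphatase that activates CDK1, was at 30.3, 33.3 and 34.6 FPKM across WT cytoplasms, against 31.8, 26.0 and 31.3 FPKM in the Mtr4-null ones. Its groups overlapped (log2 -0.14 ± 0.11, limma adjusted p = 0.391). The ratio of Wee2 to Cdc25b was 6.89, 7.15 and 6.54 in WT cytoplasms and 6.19, 5.82 and 4.63 in Mtr4-null cytoplasms, lower in all of the latter.

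Mos was the exception in direction. It encodes the kinase that starts the MAP kinase pathway and is among the best known stored mRNAs of the oocyte. Mos was at 428.5, 384 and 432 FPKM across the WT cytoplasms, against 471, 531 and 461 FPKM in the Mtr4-null ones, so every Mtr4-null value was above every WT value. The log2 difference of 0.23 ± 0.11 was not called (limma adjusted p = 0.177). After quantile normalization it was 0.59 and called (0.0194), more than 1.5 times as large.

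Plk1 showed the largest log2 difference of the 10 genes. PLK1 is the polo-like kinase that acts at centrosomes, kinetochores and in the activation of CDK1. Plk1 was at 132, 142 and 133 FPKM across the WT cytoplasms, against 102.7, 71.2 and 76.3 FPKM in the Mtr4-null ones, and the groups lay well apart. It fell by 0.71 ± 0.15 on the log2 scale (limma adjusted p = 0.0221). The call was lost when any WT cytoplasm or Mtr4-null cytoplasm 3 was left out (adjusted p = 0.0591 to 0.0923), while the log2 difference stayed between -0.87 and -0.61 over the 6 libraries left out in turn. Aurkc, the germ-cell aurora kinase of the chromosomal passenger complex, was at 121, 89.1 and 121 FPKM across WT cytoplasms, against 114.5, 83.5 and 103 FPKM in the Mtr4-null ones. Its groups overlapped (log2 -0.13 ± 0.17, limma adjusted p = 0.609). The summed granulosa markers moved with genotype as well, from 34.4 to 41.4 FPKM in WT cytoplasms to 20.8 to 27.1 FPKM in Mtr4-null cytoplasms, of which Nr5a2 alone made 26.6 to 30.6 and 15.5 to 20.3 FPKM. Their part in the results was not tested.

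**Figure D2:**
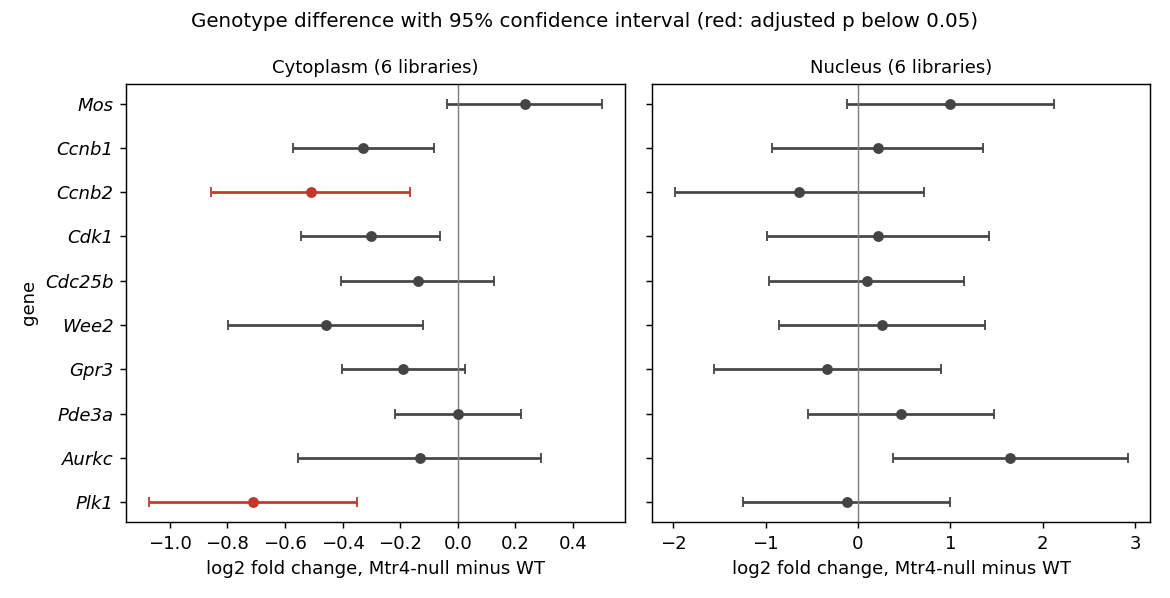
Log2 fold change of Mtr4-null against WT for the 10 genes in cytoplasm (left) and nucleus (right), with 95% confidence intervals from limma fits of 6 libraries each. Red marks an adjusted p below 0.05, which only Ccnb2 and Plk1 in cytoplasm reached, and the nuclear axis spans a wider range because the nuclear intervals are wider.

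Promoter stretches are shown for Ccnb1, Ccnb2, Cdk1 and Plk1, genes of cell division that all lay below WT in every Mtr4-null cytoplasm. Promoters came from RefSeq (GRCm38.p6), 250 bases before to 50 after a start, and 8 of the 10 genes had one (not Mos and Pde3a). Each was searched on both strands for TTTGAA, the core of the cell cycle genes homology region (CHR), and for CCAAT, the CCAAT box. Only these exact letters were searched for, so other forms of either element are neither counted nor marked. Both elements are known from promoters of genes that dividing cells switch on late in the cell cycle. The motifs do not overlap each other in the stretches printed. TTTGAA was in 17.9% and CCAAT in 37.4% of all 32851 promoters, and both were in 6.95%. Ccnb2, Cdk1 and Plk1 held both, and Ccnb1 held 2 CCAAT boxes and no TTTGAA. Wee2 and Gpr3 also lay below WT in every Mtr4-null cytoplasm, and they held CCAAT and no TTTGAA. Cdc25b and Aurkc, whose groups overlapped, held CCAAT and no TTTGAA as well. Capitals mark the motifs on either strand (ATTGG is CCAAT read on the other strand), and sequences run 5′ to 3′ on the gene's strand. The stretches are Ccnb2 at chr9:70421540-70421649 on the minus strand, Plk1 at chr7:122159365-122159434 and chr7:122159454-122159479 on the plus strand, Cdk1 at chr10:69352913-69352997 on the minus strand and Ccnb1 at chr13:100786487-100786591 on the minus strand.
Ccnb2: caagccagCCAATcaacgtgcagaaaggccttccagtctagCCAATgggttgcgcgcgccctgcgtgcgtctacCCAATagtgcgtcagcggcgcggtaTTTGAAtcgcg
Plk1, before the start: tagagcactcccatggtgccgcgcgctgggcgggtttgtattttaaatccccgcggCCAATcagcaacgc
Plk1, after the start: ccagcgccgcgTTTGAAttcggggag
Cdk1: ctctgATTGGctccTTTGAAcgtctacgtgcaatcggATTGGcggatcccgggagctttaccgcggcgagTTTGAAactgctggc
Ccnb1: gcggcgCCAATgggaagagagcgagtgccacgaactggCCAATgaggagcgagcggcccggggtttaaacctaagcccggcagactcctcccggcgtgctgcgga

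Ccnb2 carries 3 CCAAT boxes before its start and a pair of TTTGAA, one at base 5 after the start and one at base -167, outside the stretch printed. Cdk1 carries a pair of TTTGAA, the nearer one beginning 15 bases before the start, and a CCAAT box at base -208, also outside its stretch. Plk1 has its CCAAT box before the start and its TTTGAA after it. Among genes tested in cytoplasm that had a promoter in the table, both motifs were in 10% of the 930 called lower, 5.3% of the 1265 called higher and 5.93% of the 7081 not called. Of the wider pathway genes described below, 5 of the 11 called lower held both, against 7 of the 48 not called. These are matches of letters, grouped after the expression values were known, and are a description only.

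Ratios within a library do not depend on how the library was scaled, and those of Mos to most of the other genes differed between genotypes in both compartments. The ratio of Mos to Ccnb1 was 1.09, 0.865 and 1.12 in WT cytoplasms and 1.40, 1.64 and 1.49 in Mtr4-null cytoplasms. In WT nuclei it was 0.862, 1.04 and 1.05, while the nuclei labelled Mtr4-null gave 1.63, 1.86 and 1.63. Mos and Ccnb1 transcripts were thus about level in every WT library and Mos exceeded Ccnb1 in every Mtr4-null library, including the nuclei whose labels are in doubt. Mos was higher in all Mtr4-null than in all WT libraries of both compartments relative to 7 of the other 9 genes: Ccnb1, Ccnb2, Cdk1, Cdc25b, Wee2, Gpr3 and Plk1. Against Plk1, the ratio of Mos went from 3.25, 2.71 and 3.25 to 4.59, 7.46 and 6.04 in cytoplasm. In nuclei it went from 2.50, 3.0 and 2.36 to 4.94, 6.11 and 6.23. Some of these ratios also differed between the WT compartments. Mos to Gpr3 was 2.6, 3.1 and 2.39 in WT nuclei and 7.44, 6.83 and 6.78 in WT cytoplasms. Ratios of Mos to Ccnb2, Cdk1 and Cdc25b were likewise higher in all WT cytoplasms, while those to Ccnb1, Wee2 and Plk1 overlapped. The part of cytoplasm left in the nuclei in these ratios was not tested.

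Of the 45 ratios between the 10 genes, 22 did not overlap between genotypes in cytoplasm (48.9%), near the 48.5% of all pairs of the 10474 genes above 0 in every library. In nuclei 22 did not overlap, against 19.5% of all pairs. In 13 ratios (28.9%) the groups were apart in the same direction in both compartments, against 7.12% of all pairs. The 45 ratios share genes, so a few genes carry this count, and 11 of the 13 involve Mos or Plk1. All pairs were not matched to the 10 genes in level or spread. In mean FPKM each of the 10 exceeded 67 to 99.4% of genes tested, depending on gene and group. Their median log2 SD was 0.0944 in WT cytoplasm, against 0.135 over all genes tested, but 0.894 against 0.752 in nuclei labelled Mtr4-null. The part of level and spread in these shares was not tested. Set against each of the 10473 other genes, Mos was relatively higher in both compartments for 24.3% of them, a larger share than 97.8% of genes had, and the median gene had 1.16%. Ccnb2 and Plk1 were relatively lower in both compartments against 13.6% and 12.9% of other genes, where the median gene had 1.02%. Without the libraries labelled Mtr4-null nucleus 1 and 3, a choice made after seeing the data, the single Mtr4-null nucleus left lay outside the WT nuclei in 43 ratios, against 71.4% of all pairs. Then 21 ratios (46.7%) were apart in the same direction in both compartments, against 26.6% of all pairs, and 13 of these involve Mos or Plk1. The share of other genes against which Mos was relatively higher was then 29.0%, a larger share than 86.2% of genes had, and the median gene had 6.58%. Ccnb2 and Plk1 were relatively lower against 53.8% and 41.5% of other genes, and the median gene against 7.05%. Aurkc was relatively higher than Plk1 in both compartments: 0.918, 0.627 and 0.910 in WT against 1.12, 1.17 and 1.35 in Mtr4-null cytoplasms, and 0.355, 0.392 and 0.180 against 0.632, 1.14 and 1.67 in nuclei.

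**Figure D3:**
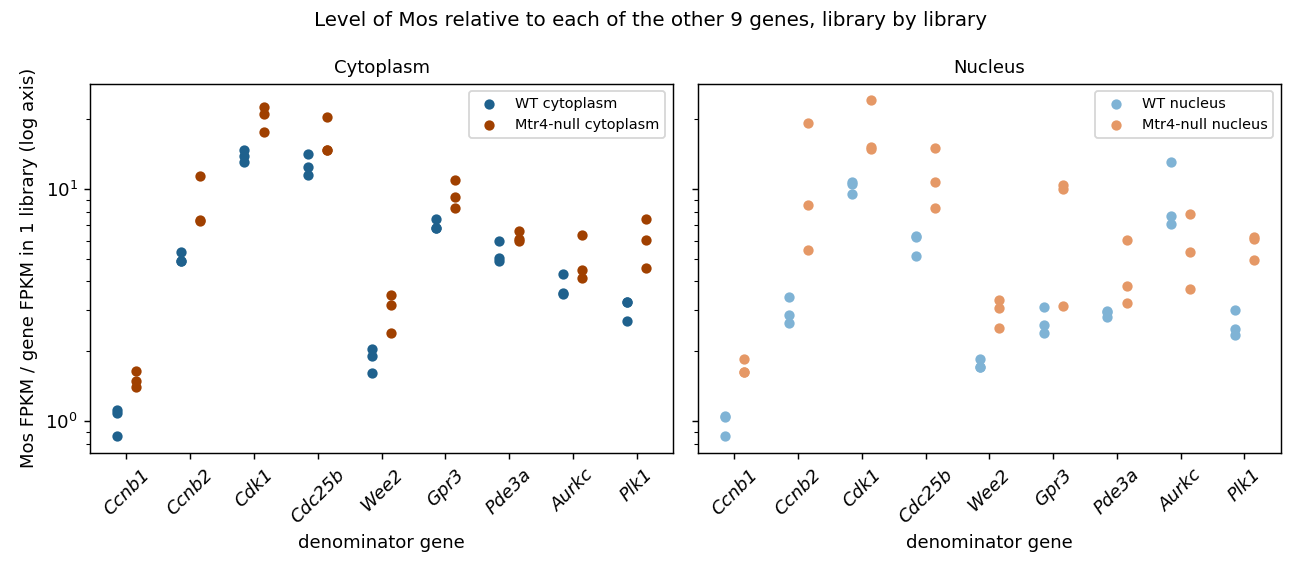
Ratio of Mos FPKM to the FPKM of each of the other 9 genes (log axis) in each cytoplasm (left) and nucleus (right), with WT in blue and Mtr4-null in orange. For 7 denominators the 3 Mtr4-null points lie above the 3 WT points in both panels, and Pde3a does so in the nucleus only and Aurkc in neither.

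Between nuclei of the genotypes none of the 10 genes was called by limma, 1 had an unadjusted p below 0.05, and 0.038% of all genes (5 of 13157) were called. Aurkc was the gene with that p. It was at 15.6, 9.85 and 8.18 FPKM in the WT nuclei, against 22.4, 21.2 and 97.5 FPKM in those labelled Mtr4-null, so all of the latter were higher. The log2 difference was 1.65 ± 0.60 (limma adjusted p = 0.476), above that of 99% of genes, and the highest value came from the nucleus that stood apart. Without the libraries labelled Mtr4-null nucleus 1 and 3 it was 0.91 (adjusted p = 0.325), which rests on 1 Mtr4-null library assumed to vary like the others. Mos was the other gene whose groups did not overlap, at 109.9, 75.5 and 107 FPKM in the WT nuclei, against 175, 114 and 363 FPKM in those labelled Mtr4-null. Its log2 difference was 1.0 ± 0.53 (limma adjusted p = 0.708) and 0.24 without the same libraries. With library weights it was 0.76 and called (limma adjusted p = 0.0451). That setting called 1656 of the 13157 genes, against 5 without weights. Over all genes 12.9% did not overlap between nuclei. The summed nuclear RNA markers were lower in all nuclei labelled Mtr4-null than in any WT nucleus, and their part in the values of Aurkc and Mos was not tested.

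The other 8 genes overlapped between genotypes in nuclei, and the spread there was wide. The median SD of the 10 genes on the log2 scale was 0.39 for WT nuclei and 0.89 for those labelled Mtr4-null, against 0.09 and 0.15 in WT and Mtr4-null cytoplasms. Ccnb2 spread the most, at 41.6, 22.02 and 37.4 FPKM in the WT nuclei, against 32.2, 5.90 and 42.6 FPKM in those labelled Mtr4-null. Plk1, which fell in cytoplasm, was at 43.9, 25.1 and 45.4 FPKM in the WT nuclei, against 35.4, 18.6 and 58.2 FPKM in those labelled Mtr4-null. Both genes overlapped between genotypes with all libraries as labelled. Without the libraries labelled Mtr4-null nucleus 1 and 3, the log2 difference was -2.28 for Ccnb2 and -0.95 for Plk1, from the single nucleus left. It was then -1.58 for Gpr3, -0.67 for Ccnb1, -0.66 for Wee2, -0.27 for Cdk1, -0.24 for Cdc25b and 0.09 for Pde3a. Ccnb1 was at 127, 72.3 and 102 FPKM in the WT nuclei, against 107.7, 61.1 and 222.5 FPKM in those labelled Mtr4-null. Wee2 was at 63.7, 43.9 and 57.8 and at 69.4, 34.1 and 118.5 FPKM. Ccnb1 and Wee2 were lowest in nucleus 2 of each genotype, as was the sum of the 10 genes (317.7 FPKM in WT, 322.8 FPKM in Mtr4-null). The median-of-ratios scaling factor, taken over all genes, was also lowest there, at 0.53 and 0.48, against 0.70 to 1.28 in the other nuclei. Cdk1 stood at 7.07 to 11.5 FPKM in WT nuclei and 7.27 to 23.9 FPKM in nuclei labelled Mtr4-null, and Cdc25b at 12.1 to 20.8 and 13.8 to 24.2 FPKM. The arrest genes Gpr3 (24.4 to 44.8 and 11.3 to 55.7 FPKM) and Pde3a (25.5 to 39.3 and 35.4 to 60.0 FPKM) overlapped as well.

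The difference between the nuclear and the cytoplasmic effect of genotype was called for none of the 10 genes, with 1 at an unadjusted p below 0.05 (limma) and 0.122% of all genes called. The gene was again Aurkc, with a difference of 1.78 ± 0.67 on the log2 scale (limma adjusted p = 0.344). Without the libraries labelled Mtr4-null nucleus 1 and 3, limma called Ccnb2 (-1.77, adjusted p = 0.0227) and Gpr3 (-1.39, adjusted p = 0.0403), from the single nucleus left, along with 11% of all genes.

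In WT oocytes the 10 transcripts were all lower in the nucleus than in the cytoplasm as deposited, with no overlap. Of them 9 were called lower (limma, fit of 12 libraries), all but Gpr3, against 57.1% of all genes called, 45% lower and 12% higher. Non-overlap with the nucleus lower held for 59.4% of all genes. The median log2 difference was -1.71 over the 10 genes and -0.90 over all genes. Aurkc had the lowest nuclear level relative to the cytoplasm, 11.2 ± 3.90 against 110.3 ± 18.4 FPKM (log2 -3.22 ± 0.47, limma adjusted p = 0.000274), and 0.2% of genes had a lower value. Mos (-2.10 ± 0.39), Ccnb1 (-2.04 ± 0.41), Wee2 (-2.02 ± 0.39) and Plk1 (-1.85 ± 0.38) followed, with 3.6 to 9.1% of genes below them. Cdk1 (-1.56), Ccnb2 (-1.31), Pde3a (-1.22) and Cdc25b (-0.95) were called and lay nearer the median gene, and Gpr3, at -0.70 ± 0.45, was not (adjusted p = 0.185). A fit of the 6 WT libraries alone called all 10 (limma), along with 8958 of the 13157 genes. There Gpr3 had a limma adjusted p of 0.032. With library weights all 10 were called too, along with 9352 genes.

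The size of these nuclear deficits, and for some genes their direction, depends on the scaling. After median-of-ratios scaling the median gene stood at 0.02 and the median of the 10 genes at -0.61, with 5 called (28.8% of all genes) and Cdc25b (0.15) and Gpr3 (0.41) above 0. There 67.6% of calls over all genes were higher in the nucleus, against 21.1% as deposited. After quantile normalization the medians were -0.22 and -0.48, 4 of the 10 and 24.8% of all genes were called, and Ccnb2, Cdc25b, Gpr3 and Pde3a lay above 0, with 50.8% of all calls higher. Rescaled without the genes that took over 1% of a library, the medians were -0.60 and -1.36 and 8 of the 10 were called, with 48% of all genes. Aurkc (-2.02 to -2.87), Mos (-0.96 to -1.73), Ccnb1 (-0.90 to -1.68) and Wee2 (-0.64 to -1.66) were the members called lower in the nucleus under each of these 3 scalings.

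In Mtr4-null oocytes 6 of the 10 were called lower in the nucleus, Mos, Ccnb1, Ccnb2, Wee2, Aurkc and Plk1 (log2 -1.50 to -1.26, limma adjusted p = 0.0344 to 0.0491). Over all genes 32.2% were called, 28.1% lower. This direction turned with the scaling: 12.7% of calls were higher in the nucleus as deposited, but 94.9% after median-of-ratios scaling, 84% after quantile normalization and 64.5% after rescaling, with 0, 2 and 0 of the 10 genes called. The median was -1.28 over the 10 genes and -0.82 over all genes. The count was 0 in a limma fit of the Mtr4-null libraries alone, where 5 had an unadjusted p below 0.05 and 0.935% of all genes were called. Without the libraries labelled Mtr4-null nucleus 1 and 3 it was 10, with 64.4% of all genes called, but that fit holds a single Mtr4-null nucleus, assumed to vary like the other groups, and is not comparable with the counts from 3. Leaving out any 1 Mtr4-null library gave 0, except that it gave 9 without the one labelled nucleus 3. Aurkc stood at -1.44 ± 0.47 here and at -3.22 in WT, which is the difference of 1.78 tested above. Both compartment comparisons stand on libraries that also enter the genotype comparisons.

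**Figure D4:**
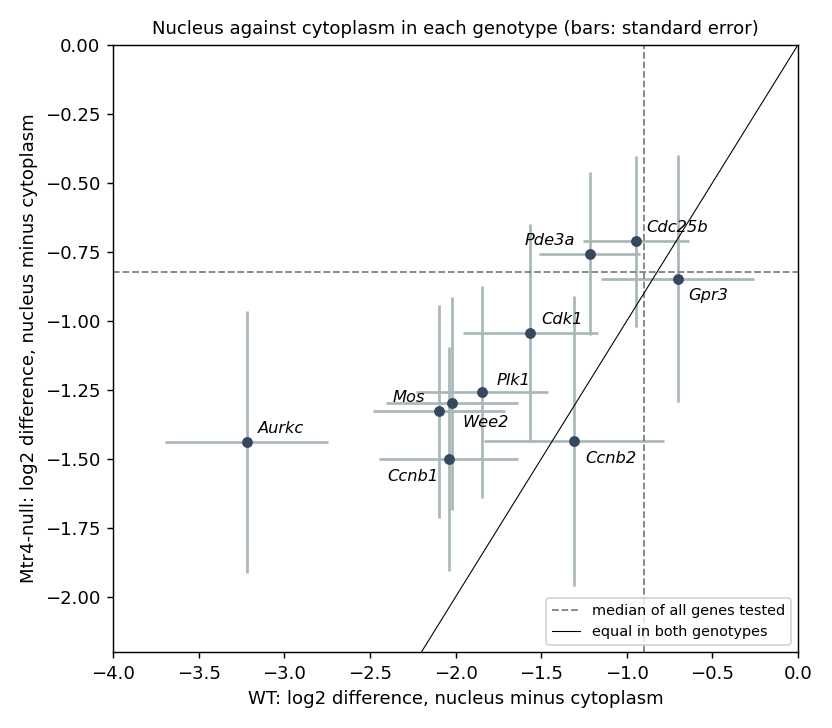
Log2 difference of nucleus minus cytoplasm in WT (horizontal axis) and Mtr4-null oocytes (vertical axis) for the 10 genes, with standard errors, from the limma fit of 12 libraries. Dashed lines are the medians of all genes tested, -0.90 and -0.82, and Aurkc lies farthest left of the line of equal values.

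The wider pathway was described with 5 lists of 91 genes, of which 88 were in the table and 82 were tested. In Mtr4-null cytoplasm 4 rose and 16 fell, beside 13.3% and 9.85% of all genes, with a median log2 difference of -0.16. The fit of all 12 libraries called 1 of them, Ccnb3. Leaving out 1 cytoplasm at a time gave 0 to 5 rises and 5 to 22 falls, lowest without WT cytoplasm 2 or 3.

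Among 13 tested genes of arrest signalling through cyclic AMP and cyclic GMP, 1 rose and 3 fell. Adcy6, an adenylyl cyclase that makes cyclic AMP, fell from 12.1, 12.4 and 13.9 FPKM to 3.53, 2.62 and 4.26 FPKM (log2 -1.64 ± 0.18, limma adjusted p = 0.00358). Rgs2, a regulator of G protein signalling, fell from 235 ± 8.64 to 140.3 ± 30.1 FPKM (log2 -0.76), and Prkar2b, a regulatory subunit of protein kinase A, from 6.80 ± 0.476 to 2.95 ± 1.17 FPKM (log2 -1.02). The gene that rose was Prkacb, a catalytic subunit of protein kinase A, from a mean of 10.2 to 13.5 FPKM (log2 0.37), and it was named after its value was seen. Gnas, the G protein subunit that couples GPR3 to adenylyl cyclase, was at 238 ± 34.1 and 241 ± 37.3 FPKM and not called.

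Among 19 tested genes of the CDK1 switch, 3 rose and 3 fell. Ccnb3, a cyclin needed for the exit from meiosis I in female mice, showed the largest change of all, from 9.07, 11.95 and 8.12 FPKM to 1.56, 0.354 and 1.02 FPKM (log2 -2.47 ± 0.28, limma adjusted p = 0.00395, and 0.0207 in the fit of all 12 libraries). Wee1, the somatic relative of Wee2, rose from 27.4 ± 2.89 to 42.8 ± 5.34 FPKM (log2 0.62). Wee1 and Wee2 thus stood on opposite sides of 0, Wee2 without a call. Mastl, the kinase that restrains the phosphatase opposing CDK1, fell from 53.5 ± 3.80 to 32.5 ± 6.53 FPKM (log2 -0.72). Ensa, its substrate, was called higher (log2 0.65), as was Akt1, a kinase that can phosphorylate PDE3A (log2 0.47), and Cks1b, a CDK-binding subunit, was called lower (log2 -0.58). These last 3 were named after their values were seen. Chek1 (130.2 ± 6.76 and 116.5 ± 3.21 FPKM) and Cks2 (104.5 ± 5.52 and 81.8 ± 15 FPKM) were not called.

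On the list for MOS, the MAP kinase pathway and the control of stored mRNAs, 1 of 11 tested genes fell and none rose (limma). Mapk3, which encodes the MAP kinase ERK1, fell from 230.7, 241.6 and 238.5 FPKM to 146, 172 and 138 FPKM (log2 -0.64 ± 0.10, limma adjusted p = 0.0106). Plat, a stored mRNA translated at maturation, was at 632 ± 13.7 and 607 ± 30.7 FPKM, and Cpeb1, which encodes a regulator of such mRNAs, at 318 ± 5.56 and 264 ± 36.1 FPKM, both without a call. Of 21 genes of the anaphase-promoting complex and its inhibitors, 3 fell and none rose. Cdc20, the activator of the complex at anaphase, fell from 79.2 ± 2.74 to 48.8 ± 4.15 FPKM (log2 -0.69, limma adjusted p = 0.00558). Fbxo43, which encodes the inhibitor EMI2 of the later arrest, fell from 40.2 ± 2.35 to 26.5 ± 2.63 FPKM (log2 -0.59), and Btrc, an F-box protein of a ubiquitin ligase, from 34.4 ± 2.25 to 26.5 ± 1.97 FPKM (log2 -0.37). The separase inhibitor Pttg1 and the ubiquitin-conjugating enzyme Ube2s, the most abundant of that list, were not called.

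Of 18 tested genes of spindle and checkpoint kinases, 6 fell and none rose, and Plk1 of the 10 genes belongs to the same machinery. Bub1, a checkpoint kinase at kinetochores, fell from 47.3, 48.9 and 46.5 FPKM to 30.2, 23.0 and 25.4 FPKM (log2 -0.84 ± 0.11, limma adjusted p = 0.00637). Ttk, the kinase that starts the checkpoint, fell from 94.8, 100.1 and 94.8 FPKM to 58.3, 41.2 and 45.3 FPKM (log2 -1.0 ± 0.14, adjusted p = 0.00658). Bub1b, which encodes the checkpoint protein BUBR1, fell from 320.4 ± 10.4 to 219.5 ± 35.0 FPKM (log2 -0.55), and Plk3, a relative of Plk1, from 3.41 ± 0.196 to 1.03 ± 0.558 FPKM (log2 -1.15). Birc5, a subunit of the chromosomal passenger complex with AURKC, was at 226 ± 42.8 and 200.1 ± 30.7 FPKM without a call. None of the 20 pathway calls in cytoplasm other than that of Ccnb3 was kept in the fit of all 12 libraries. In nuclei limma called none of the 82 genes between genotypes. In WT 61 of the 82 were called lower in the nucleus than in the cytoplasm as deposited and none higher, beside 45% and 12% of all genes, with a median of -1.39 beside -0.90. As given above, most calls of this comparison over all genes were higher after median-of-ratios scaling.

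**Figure D5:**
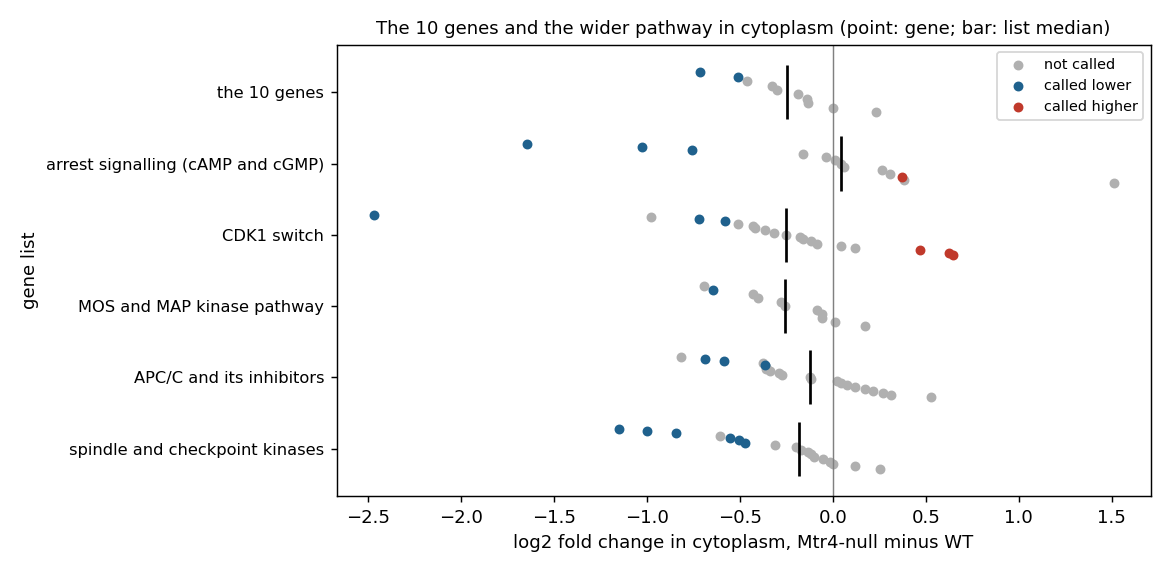
Log2 fold change of Mtr4-null against WT in cytoplasm for the 10 genes and for each of the 5 wider lists. Each point is a gene, bars are list medians, blue and red mark called lower and called higher, and the vertical line is at 0. The spindle and checkpoint list has 6 points called lower, and Ccnb3 is the point at -2.47.

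As a description of pattern, the 10 genes were averaged after standardizing each over the libraries. Over the 12 libraries, which differ mostly by compartment, the genes nearest this profile were Setd3 (Pearson r = 0.9961), Ddx19a (0.9954), Lrp6 (0.9953), Gpr180 (0.9951) and Nlrp9b (0.9945). Ccnb1 (0.9931) and Wee2 (0.9918) followed it most closely among the members, and Gpr3 least (0.787). Over the 6 cytoplasms the nearest were Scin (0.995), Serpinc1 (0.9937), 2310069G16Rik (0.9888), Zfp518a (0.988) and Lin54 (0.9876). There Cdk1 (0.9418) and Plk1 (0.9291) followed the profile, and Mos ran against it (-0.7522).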

How the data were processed

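The authors deposited FPKM for 23235 genes in 12 libraries, made per the submitters' processing notes with TopHat2 2.1.1, Cufflinks 2.2.1 and genome build mm9. Annotation, strandedness and read numbers were not found in the sources used here, so reads of overlapping or near-identical genes may be divided differently and depth is unknown. Sample titles identified the columns. Genes reaching 1 FPKM in 3 or more libraries (13157) were tested as log2(FPKM + 1), which understates changes of low genes, with limma 3.58.1 (R 4.3.3, variance trend, Benjamini-Hochberg, two-sided, adjusted p below 0.05). Genotype was tested in the 6 libraries of each compartment, because nuclei spread more, and nucleus against cytoplasm and the difference of effects in all 12. Groups that do not overlap are described without a p: 3 against 3 can reach an exact permutation p of 0.1 at the smallest. Alternatives were the other choice of libraries, a pseudocount of 0.1, no filter, median-of-ratios, quantile and rescaled values, library weights, a replicate block and leaving out libraries. All 10 genes are named. Of each wider list, the up to 3 called genes with the smallest adjusted p and the 2 most abundant in WT cytoplasm are named. The members, lists and rules were chosen with earlier results of these data known. The fits were tested on simulated data with independent noise for each gene and library, so shifts of a whole library were not covered. Of 7 mitochondrially encoded markers, none matched a symbol.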

Additional observations from a re-analysis of the deposited data

How the results depend on the processing

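Counts of the 10 genes called moved as follows. Between cytoplasms (2) it was 0 in the fit of all 12 libraries, 1 with a pseudocount of 0.1, 1 without the filter, 4 with library weights and 0 to 3 with 1 library left out. Between nuclei (0) it was 1 with library weights. For nucleus against cytoplasm in WT (9) it was 5 after median-of-ratios scaling and 4 after quantile normalization. In Mtr4-null (6) it was 0 in the fit of that genotype alone, without the filter, after median-of-ratios scaling and after rescaling, 2 after quantile normalization, 10 without the libraries labelled Mtr4-null nucleus 1 and 3, and 0 to 9 with 1 library left out. For the difference of effects (0) it was 2 without those libraries. Other alternatives, the replicate block below aside, left these counts within 1.5 times. The cause was not tested. Matching counts over all genes follow below for most of the settings named.

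No label ties same-numbered samples to one another. Deviations of same-numbered samples correlated across genes at r = -0.154, -0.124 and 0.075 between cytoplasms, 0.119, 0.063 and -0.015 between nuclei, -0.133, -0.012 and -0.042 between WT nuclei and cytoplasms, and 0.058, 0.303 and 0.117 between Mtr4-null ones. In none of these were all 3 over 0.1, and the samples were treated as sharing only a number. Such correlations cannot show whether same-numbered nuclei and cytoplasms came from the same oocytes. Those between Mtr4-null nuclei and cytoplasms were all above 0. With the replicate as a block, limma called 0 of the 10 between cytoplasms (3 at an unadjusted p below 0.05) and 1487 genes against 3050. It called 0 of the 10 between nuclei (8 of all genes) and 9 between WT compartments (7916 of all genes). It called 7 between Mtr4-null compartments (5535 of all genes) and 0 for the difference of effects (11 of all genes). Not every nucleus or cytoplasm correlated best with its own number.

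Over all genes, calls between cytoplasms went from 3050 to 248 in the fit of 12 libraries and 1124 to 3114 with 1 left out. Between nuclei they went from 5 to 298 in that fit, 1656 with library weights, 12 without the libraries labelled Mtr4-null nucleus 1 and 3, and 4 to 50 with 1 left out. WT compartment calls went from 7509 to 3787 (median of ratios) and 3262 (quantile), and Mtr4-null ones from 4230 to 123 (that genotype alone), 1177 (no filter), 647, 487, 716 (the 3 scalings), 8342 (weights), 8471 (without nucleus 1 and 3) and 177 to 8522 with 1 left out. Calls of the difference of effects went from 16 to 111 (no filter), 187, 76 and 47 (the 3 scalings), 961 (weights), 1450 (without nucleus 1 and 3) and 5 to 289.

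Directions that turned were of differences without a call, except for Cdc25b, Ccnb2 and Pde3a between WT compartments. In cytoplasm, Plat stood at 0.16 and Ube2s at 0.11 after quantile normalization, and Pde3a at -0.0611 and Gnas at -0.0166 with library weights. With 1 library left out, Pde3a ranged from -0.0631 to 0.0673 and Gnas from -0.11 to 0.12. In nuclei, Cdc25b stood at -0.0621 after median-of-ratios scaling. After quantile normalization Ccnb1 stood at -0.0094, Cdc25b at -0.13 and Wee2 at -0.072. With library weights Ccnb1 stood at -0.0113, Cdk1 at -0.41, Cdc25b at -0.10 and Gpr3 at 0.39. Without the libraries labelled Mtr4-null nucleus 1 and 3, Ccnb1 stood at -0.67, Cdk1 at -0.27, Cdc25b at -0.24 and Wee2 at -0.66. With 1 nucleus left out, the ranges were -0.27 to 0.65 for Ccnb1, -1.15 to 0.18 for Ccnb2, -0.30 to 0.49 for Cdk1, -0.12 to 0.26 for Cdc25b, -0.16 to 0.73 for Wee2, -0.81 to 0.29 for Gpr3 and -0.50 to 0.29 for Plk1.

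For nucleus against cytoplasm in WT, Cdc25b stood at 0.15 and Gpr3 at 0.41 after median-of-ratios scaling, and Ccnb2 at 0.0654, Cdc25b at 0.25, Gpr3 at 0.63 and Pde3a at 0.13 after quantile normalization. In Mtr4-null the values were 0.20 for Cdc25b, 0.0705 for Gpr3 and 0.18 for Pde3a after the first, and 0.21, 0.11 and 0.24 after the second. The difference of effects stood at -0.0473 for Cdc25b after quantile normalization, and at 0.0285 for Ccnb2 and 0.38 for Gpr3 with library weights. Without the libraries labelled Mtr4-null nucleus 1 and 3 it was -0.34 for Ccnb1, -0.10 for Cdc25b, -0.20 for Wee2 and -0.24 for Plk1. With 1 library left out it ranged from -0.64 to 0.69 for Ccnb2, -1e-04 to 0.80 for Cdk1 and -0.62 to 0.48 for Gpr3.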
